A study of Mus musculus with 2 samples.

Results

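Groucho proteins, encoded by the Tle genes in mice, are corepressors: they do not bind DNA themselves but are brought to genes by transcription factors and keep those genes silent. The account covers 53 genes of that circuit among 21883 protein-coding genes: the 6 genes of the Tle family, 11 genes for DNA-binding partners, 16 Wnt components and 20 Notch components and corepressors. The genes were taken by name, by a list drawn up with earlier results of these data known. What was measured is acetylation of histone H3 at lysine 27 (H3K27ac), found at promoters and enhancers in use, by CUT&Tag, in which an antibody guides a transposase that cuts and tags the marked chromatin. The cells were colonic macrophages of C57BL/6 mice, gated as Siglec-F-negative, Ly6C-low and CD64-positive. The control group, named WT, carried Lyz2-Cre, and the knockout group, named Tle4cKO, was Tle4f/f Lyz2-Cre, so that both groups carried the Cre recombinase, which the lysozyme gene Lyz2 drives in myeloid cells. All mice were male and 11.1 weeks old. Cells of 4 mice per genotype were pooled into 1 library, so there is no replicate, no test between genotypes is possible, and no difference between the lists has a replicate check.

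In the Wnt pathway, secreted ligands bind Frizzled and Lrp5 or Lrp6 receptors, Dishevelled proteins then inhibit a destruction complex of Axin, Apc, casein kinase 1 and glycogen synthase kinase 3, and beta-catenin accumulates and joins TCF and LEF factors in the nucleus. In the Notch pathway, a ligand on a neighbouring cell leads gamma-secretase to cut the Notch receptor, whose inner part joins Rbpj and a Mastermind coactivator on DNA. In the absence of a signal TCF and LEF factors hold Groucho proteins at their target genes, and HES and RUNX factors, several of them targets or partners of Notch signalling, recruit Groucho proteins as well.

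The deposited data are 1 list of peak summits per library, each a position of 1 bp with a score set by the authors, taken here to be a −log10 significance (p or q, which was not stated). The WT list held 10474 summits and the Tle4cKO list 2350, with median scores of 4.47 and 4.05. Read depth was unknown, and a score grows with depth, so scores describe or rank summits within 1 list. A gene without a summit may still carry signal below the calling threshold. Marked cells being fewer and each cell carrying less of the mark cannot be told apart in pooled cells. A WT summit lay within 10 kb of 9 of 15 macrophage marker genes (60.0%, against 39.2% of all protein-coding genes), and a Tle4cKO summit within 10 kb of 0 of 15 (upper bound of the exact 95% interval 21.8%, against 11.6% of all genes). The 9 were Csf1r, Cx3cr1, Adgre1, Fcgr1, Cd14, Cd68, Mertk, Mrc1 and Spi1, with highest WT scores from 2.03 at Spi1 to 7.01 at Cd14. C1qa, C1qb, C1qc, Itgam, Cd163 and Lyz2, the gene that drives the Cre, had no summit within 10 kb in either list. WT summits lay near 1 of 8 epithelial, 0 of 5 fibroblast, 0 of 5 neutrophil, 2 of 6 T cell, 2 of 5 B cell, 3 of 4 endothelial and 5 of 5 dendritic cell markers, so the summits alone do not identify the cell type.

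The promoters below are shown because they contrast the gene deleted in the knockout, which had no summit, with members whose start of transcription was marked in WT. Each line is the stretch just upstream of the gene, outside its outer bounds, 5′ to 3′ on the gene's own strand, from RefSeq on GRCm38.p6 (mm10). Capitals mark matches on either strand to motifs of the pathways' factors and of common promoter factors, which were TGGGAA (RBPJ), CTTTGAA or CTTTGTT (TCF/LEF), TGTGGT (RUNX), CACGTG or CACNAG (HES/HEY), GGGCGG (GC box) and CCGGAA (ETS). Neighbouring GC boxes can overlap. The regions are chr19:14598184-14598433 (minus strand) for Tle4, chr4:72200990-72201143 (minus) for Tle1, chr16:38088751-38089000 (plus) for Gsk3b, chr7:25237852-25238101 (minus) for Gsk3a, chr4:155847152-155847401 (plus) for Dvl1 and chr12:83921943-83922184 (minus) for Numb.
Tle4: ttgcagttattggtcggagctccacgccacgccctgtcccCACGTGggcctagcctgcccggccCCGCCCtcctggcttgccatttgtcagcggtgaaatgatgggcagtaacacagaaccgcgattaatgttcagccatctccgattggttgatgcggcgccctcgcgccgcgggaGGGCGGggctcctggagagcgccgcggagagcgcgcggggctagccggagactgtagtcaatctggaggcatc
Tle1: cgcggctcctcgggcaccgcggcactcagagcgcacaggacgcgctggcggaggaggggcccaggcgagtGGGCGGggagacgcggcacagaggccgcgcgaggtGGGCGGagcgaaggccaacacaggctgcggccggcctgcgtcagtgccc
Gsk3b: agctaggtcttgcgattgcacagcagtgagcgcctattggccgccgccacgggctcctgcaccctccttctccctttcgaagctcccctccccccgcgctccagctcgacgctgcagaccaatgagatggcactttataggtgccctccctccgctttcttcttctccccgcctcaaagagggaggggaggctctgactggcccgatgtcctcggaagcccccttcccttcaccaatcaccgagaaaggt
Gsk3a: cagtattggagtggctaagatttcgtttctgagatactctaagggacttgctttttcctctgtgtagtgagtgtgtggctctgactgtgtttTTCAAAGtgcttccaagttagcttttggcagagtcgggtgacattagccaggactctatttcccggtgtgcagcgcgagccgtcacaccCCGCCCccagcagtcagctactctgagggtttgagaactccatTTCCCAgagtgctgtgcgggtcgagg
Dvl1: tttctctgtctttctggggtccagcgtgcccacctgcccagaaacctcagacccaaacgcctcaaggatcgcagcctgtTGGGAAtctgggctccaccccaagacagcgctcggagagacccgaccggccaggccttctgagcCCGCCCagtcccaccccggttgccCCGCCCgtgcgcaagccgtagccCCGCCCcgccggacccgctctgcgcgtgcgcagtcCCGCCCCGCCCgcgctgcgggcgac
Numb: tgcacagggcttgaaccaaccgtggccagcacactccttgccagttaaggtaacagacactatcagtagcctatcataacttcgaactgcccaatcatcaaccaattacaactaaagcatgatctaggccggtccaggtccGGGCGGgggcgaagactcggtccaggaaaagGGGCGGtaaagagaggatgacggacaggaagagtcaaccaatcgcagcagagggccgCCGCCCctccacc
The Tle4 stretch held 2 GC boxes and 1 HES/HEY match, and 65.2% of its bases were G or C. Tle1 held 2 GC boxes at 77.3% G and C. Dvl1 held 5 GC boxes and 1 RBPJ match, and Numb held 3 GC boxes. Gsk3a held 1 match each to the GC box, RBPJ and TCF/LEF motifs, whereas the Gsk3b stretch held no match to any of these motifs. A match is a description of the sequence and not evidence that a factor binds there.

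Over the 53 genes, WT summits were found in the 10 kb window of 13 of 16 Wnt, 14 of 20 Notch, 4 of 11 partner and 1 of 6 Tle genes, and Tle4cKO summits at 6 genes in all. In the gene or within 10 kb of it, 32 of 53 members (60.4%, exact Clopper-Pearson 95% interval 46.0 to 73.5%) had a WT summit, against 39.2% of all protein-coding genes. That comparison is not matched for gene length, and the split by length is given below. It also carries no test, since the members were chosen with earlier results of these data known. The same window held a Tle4cKO summit at 6 of 53 (11.3%, 4.27 to 23.0%), against 11.6% of all genes. All 6 also had a WT summit, so 26 members were marked in WT alone, 0 in Tle4cKO alone and 21 in neither. Of all 21883 genes, 6206 were marked in WT alone, 182 in Tle4cKO alone and 13129 in neither. A WT summit was likewise found at 2366 of the 2548 genes with a Tle4cKO summit, so 0 of 6 is not a trait of the members. The member counts depend on the longer WT list. With only its highest scores kept, as many as the 2350 of Tle4cKO, 8 members were marked in WT and 6 in Tle4cKO. Of these, 2 were marked in both, 6 in WT alone and 4 in Tle4cKO alone. Shares over all genes were not computed under this cut, so these counts show only how the member counts move and have no background. Of the members marked in WT, 18.75% (7.21 to 36.4%) also had a Tle4cKO summit, against 27.6% over all genes, and the interval includes that background. Intervals cover counting error only.

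The place of the summits differed between ends and bodies of genes. Within 1 kb of an outer end of the gene, 10 members (18.9%, 9.44 to 32.0%) had a WT summit and 2 had a Tle4cKO summit, against 22.6% and 6.19% of all genes. The split depends on that cutoff. With a window of 2 kb, 14 members had a WT summit at an end. Body counts and shares over all genes were not computed for that window. In the gene body, that is inside the gene and over 1 kb from its ends, 20 members (37.7%, 24.8 to 52.1%) had a WT summit and 4 a Tle4cKO summit, against 12.0% and 3.12% of all genes. The members are long genes, with a median of 45.9 kb against 17.2 kb over all genes, and a long gene offers more room for a body summit. Among genes of at least 45.9 kb, 18 of 27 members and 29.6% of all 5308 such genes had a WT body summit. Among shorter genes it was 2 of 26 members and 6.32% of 16575 genes. The 10 kb window also holds the gene itself. It held a WT summit at 21 of 27 long members (77.8%) and 49.9% of all long genes. For shorter genes it was 11 of 26 members (42.3%) and 35.7% of all shorter genes. Since the members were chosen with earlier results of these data known, these shares describe the list and carry no test.

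**Figure D1:**
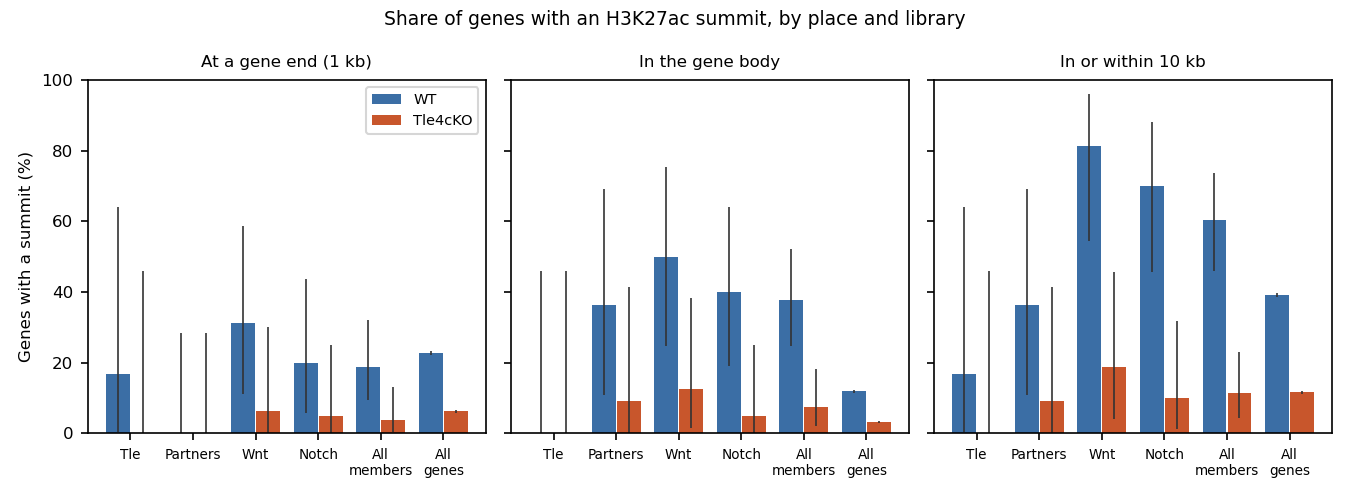
Share of genes (%, vertical axis) with a WT (blue) or Tle4cKO (orange) summit at a gene end, in the gene body, and in the gene or within 10 kb, for each group of members, all 53 members and all 21883 genes; bars start at 0 and error lines are exact 95% intervals for counting error. With gene ends set at 1 kb, the member share exceeds that of all genes in WT for the gene body (37.7% against 12.0%) and not for gene ends (18.9% against 22.6%).

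In the Tle family, 1 of 6 genes had a WT summit within 10 kb (16.7%, 0.421 to 64.1%), against 39.2% of all genes. None of the 6 had a Tle4cKO summit there (upper bound 45.9%, against 11.6% of all genes). Both intervals include the background. Tle1 had 1 WT summit (score 3.17), at 72200702 of chromosome 4, which lies 191 bp downstream of its listed start of transcription and 287 bp inside its outer end. The nearest Tle4cKO summit lay 179 kb from the gene. Tle1 and its relatives Tle2, Tle3 and Tle4 encode full-length corepressors, and Tle5 a short form that lacks the WD-repeat domain. Neither list had a summit within 10 kb of Tle2, Tle3, Tle5 or Tle6, whose nearest WT summits lay 34.8, 50.2, 35.2 and 26.2 kb away. Tle5, Tle2 and Tle6 lie together on chromosome 10, between 81559444 and 81601185, so they are not separate absences. At Tle4 itself (chromosome 19, 14448072 to 14598183), the gene floxed in the knockout, the nearest WT summit lay 1478 kb from the gene and the nearest Tle4cKO summit 2012 kb. The lists therefore hold no check of the deletion.

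Among the 11 DNA-binding partners, none had a summit at an outer end in either library. The upper bound of that share was 28.5%, against 22.6% of all genes in WT and 6.19% in Tle4cKO. In the gene body, 4 had a WT summit (36.4%, 10.9 to 69.2%), against 12.0% of all genes. These intervals include the background. Within 10 kb the same 4 genes (36.4%, 10.9 to 69.2%) were marked in WT, a share close to the 39.2% of all genes. They were Runx1, Runx2, Cbfb and Tcf7l2. Runx1, a factor of blood cell development, was marked once in WT, at 92697670 of chromosome 16 (score 3.90). It lay 341 bp upstream of the second of its listed starts, inside the gene and 96.2 kb from the nearest outer end. The first listed start, at 92826074, had no summit within 1 kb. Runx2, known for bone formation, had 3 WT body summits with scores of 1.90, 3.13 and 4.38. Its listed start was unmarked, and the highest of the 3 also lay at an end of the overlapping gene Supt3. Runx3, which acts in T cells and myeloid cells, had no summit within 10 kb, with the nearest WT and Tle4cKO summits 15.4 kb outside the gene.

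Cbfb, the subunit that pairs with all RUNX factors, was the only partner gene with a Tle4cKO summit. The pair of summits in its body lay 109 bp apart, at 105212491 of chromosome 8 in WT with a score of 2.71 and at 105212600 in Tle4cKO with a score of 3.54. The WT summit ranked 9323 of 10474 in its list, and the Tle4cKO summit 1458 of 2350. Cbfb had a further WT body summit of 2.68, 1173 bp downstream of its start, and a WT summit of 6.09 beyond the gene, at an end of D230025D16Rik. Tcf7l2, a TCF factor of Wnt target genes, had 1 WT summit of 6.07 in its body, 29.2 kb upstream of its internal start. Neither library marked Lef1, Tcf7, Tcf7l1, Hes1, Hes6 or Hey1 in the 10 kb window. The nearest WT summit lay 10.1 kb from Tcf7l1, 257 kb from Hey1, 13.0 kb from Hes6, 14.7 kb from Tcf7 and 236 kb from Lef1. Hes1, the best known Notch target gene and a recruiter of Groucho proteins, was 41.5 kb from the nearest WT summit and 520 kb from the nearest Tle4cKO summit.

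Wnt components were marked in 13 of 16 cases in WT (81.25%, 54.4 to 96.0%, against 39.2% of all genes) and in 3 of 16 in Tle4cKO (18.75%, 4.05 to 45.6%, against 11.6%). Their median length was 68.5 kb, against 17.2 kb over all genes, and the shares are not matched for length. The members were also chosen with earlier results of these data known, so the shares describe the list and carry no test. Of 79 other Wnt genes, 21 (26.6%) were marked in WT, so the member share does not stand for the pathway. At 2 of the 13, Dvl2 and Lrp5, the only summits lay outside the gene. The strongest mark at the start of a Wnt gene was at Gsk3b, the kinase that phosphorylates beta-catenin for destruction. Its WT summit had a score of 12.6 and lay 51 bp downstream of its start, at 38089052 of chromosome 16, next to the upstream stretch printed above. The score ranked 296 in the WT list and 40 among the 8591 WT summits without a Tle4cKO summit within 500 bp. Gsk3b had 3 more WT summits in its body, with scores of 2.99, 6.29 and 5.15 at 6.82, 16.7 and 42.8 kb from the start. The nearest Tle4cKO summit lay 435 kb from the gene. Gsk3a, the second form of the kinase, had a lower WT summit of 4.82 at 286 bp upstream of its start, and none in Tle4cKO.

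The 3 Dishevelled genes, whose products pass the signal from the receptor, differed in where they were marked. Dvl1 had a WT summit of 3.39, 325 bp upstream of its start. Dvl2 had no summit at its own ends; its WT summits of 8.09 and 6.83 lay at ends of its neighbours Gabarap and Acadvl. Dvl3 had a WT summit of 3.53, 339 bp downstream of its start, and a Tle4cKO summit of 4.04, 1118 bp downstream of it. The Dvl3 pair lay 779 bp apart and so counted as separate at 500 bp and as shared at 1000 bp.

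Of the other parts of the destruction complex, Csnk1a1 and Apc were marked in WT inside the gene. Csnk1a1, casein kinase 1 alpha, had a WT summit of 7.48 located 1137 bp inside an outer end, at 61555373 of chromosome 18. Apc, a scaffold of the complex, had 3 WT body summits of 5.51, 4.10 and 3.46 that lay 1249, 8759 and 20337 bp from an outer end. A further Apc summit, of 6.26, lay at an end of the neighbour Srp19. No start was listed for either gene, so their distance from a start was not measured. Ctnnb1, which encodes beta-catenin, and the scaffold genes Axin1 and Axin2 were unmarked in the 10 kb window of both lists. The nearest WT summits lay 268, 39.8 and 61.1 kb away. Bcl9, a coactivator that binds beta-catenin, had 1 WT summit of 4.09 in its body, 1428 bp from an outer end.

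Co-receptors and the ligases that act on receptors had no summit at a gene end. The co-receptor gene Lrp6 had WT body summits of 4.59 and 3.05. At Lrp5 the only summit in the window, of 6.15, lay 9.22 kb outside the gene at an end of Ppp6r3. Rnf43, a ubiquitin ligase that removes Frizzled receptors, had 1 WT body summit of 5.09. Znrf3, a ligase of the same kind, had a WT summit of 3.86 and a Tle4cKO summit of 3.32, both in the gene body. They lay 139865 bp apart and so did not mark the same site.

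**Figure D2:**
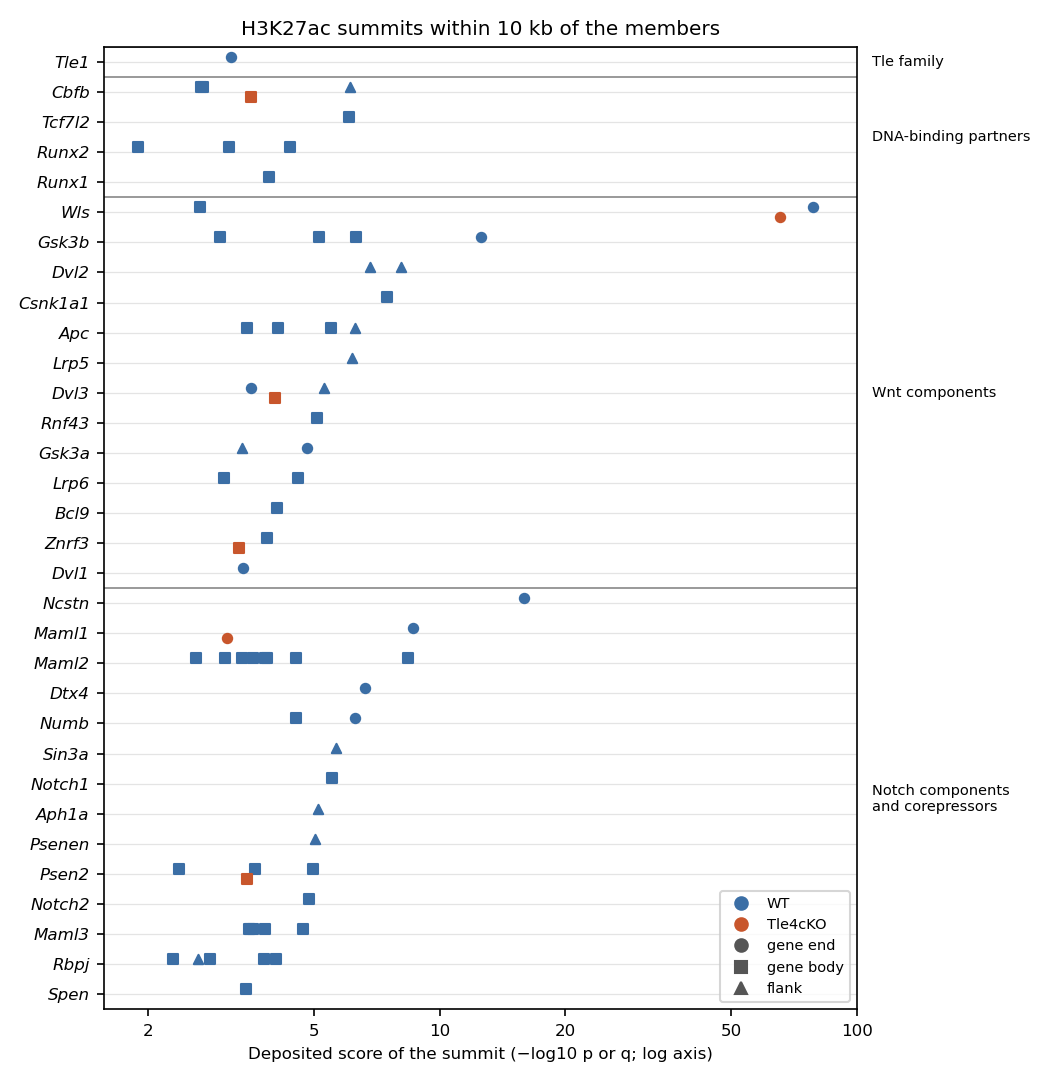
Deposited score (horizontal log axis) of every WT (blue) and Tle4cKO (orange) summit within 10 kb of the 32 marked members, grouped by role; circles are summits within 1 kb of a gene end, squares in the gene body and triangles outside the gene. Wls stands apart with 78.2 and 65.4, while the next highest member scores are 15.9 at Ncstn in WT and 4.04 at Dvl3 in Tle4cKO.

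Wls, the carrier that brings Wnt ligands to the cell surface, had by far the highest scores of any member: 78.2 in WT at 159939539 of chromosome 3 and 65.4 in Tle4cKO at 159939542. The scores ranked 18 and 24 in their lists. These summits were not at the start of Wls. They lay 873 and 876 bp beyond its far outer end and 99.9 kb from its start, and the gene was otherwise marked by a WT summit of 2.66 in its body, 2085 bp from the start. It was the only member with a summit among the 1% of highest scores of either list, 105 in WT and 25 in Tle4cKO.

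The Wls site was compared with the other top summits. Its WT and Tle4cKO summits lay 3 bp apart. Of the WT top 1%, 103 of 105 had a Tle4cKO summit within 500 bp, and of the other WT summits 1780 of 10369. Among summits with such a partner, the median distance was 15 bp in the top 1% and 98 bp in the rest. All 25 top Tle4cKO summits had a WT summit within 500 bp, and all 25 of those partners were in the WT top 1%. Among these 25, Wls was the only one within 1 kb of an end of a protein-coding gene, and none of the 25 lay within 1 kb of a listed start, while 45.0% of the remaining Tle4cKO summits did. In the WT top 1%, 24 of 105 summits (22.9%) lay at a gene end and 22 (21.0%) at a listed start, against 41.8% and 38.8% of the remaining WT summits. The nearest other summit of the same list lay 97.8 kb from the Wls site in WT, which is the body summit of 2.66, and 1992 kb from it in Tle4cKO. Whether the sequence at the Wls site is repeated was not tested, because the sequences used here cover promoters only, and the summit cannot be read as acetylation of the Wls promoter.

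**Figure D3:**
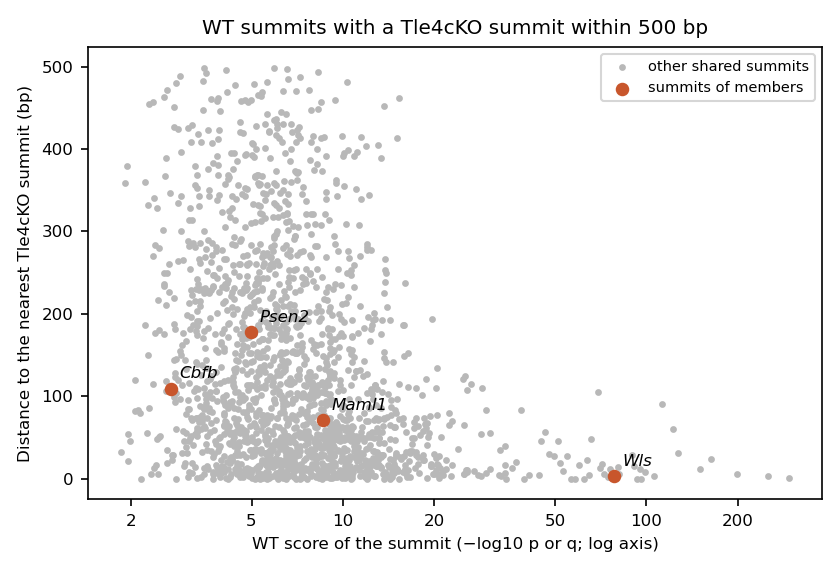
Distance in bp from each WT summit to its nearest Tle4cKO summit (vertical axis) against the WT score (horizontal log axis), for all 1883 WT summits with one within 500 bp; members are orange. Wls lies at the right among high scores, at 3 bp, while the median distance of shared summits in the WT top 1% is 15 bp. Maml1, Psen2 and Cbfb lie in the body of the cloud at 71, 178 and 109 bp.

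Notch components and corepressors were marked in 14 of 20 cases in WT (70.0%, 45.7 to 88.1%, against 39.2% of all genes) and in 2 of 20 in Tle4cKO (10.0%, 1.23 to 31.7%, against 11.6%). Their median length was 37.0 kb, against 17.2 kb over all genes, and the shares are not matched for length. As for the Wnt genes, the choice was made with earlier results of these data known, so the shares carry no test. At 3 of the 14, Psenen, Aph1a and Sin3a, the only summits lay outside the gene. Among the subunits of gamma-secretase, the highest score was at Ncstn, which encodes nicastrin, the subunit that holds the substrate. The WT summit of 15.9 lay 195 bp downstream of its start, at 172082554 of chromosome 1. The end of Copa, a coat protein gene, overlaps it, so the mark cannot be given to either gene alone. It ranked 153 in the WT list and 5 among the WT summits without a Tle4cKO partner, and the nearest Tle4cKO summit was 65.7 kb away. Psen2, a catalytic subunit, had 3 WT summits in its body. The one of 4.98, at 180244318 of chromosome 1, had a Tle4cKO summit of 3.46 at 178 bp. Another, of 2.38, lay 482 bp downstream of a listed start that the outer ends do not capture, and it had no Tle4cKO partner. The subunit genes Aph1a and Psenen had WT summits only outside the gene, of 5.12 at an end of BC028528 and of 5.03 at ends of Proser3 and Hspb6.

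The Mastermind genes encode coactivators of the Notch complex, and one of them, Maml2, had the most summits of any member. Maml1 was the only member with summits of both libraries at a listed start. The WT summit of 8.62 lay 153 bp downstream of it, at 50292183 of chromosome 11, and the Tle4cKO summit of 3.09 lay 82 bp downstream of it. The pair lay 71 bp apart, and the WT summit ranked 961 and the Tle4cKO summit 1757 in their lists. Maml2 had 8 WT summits along its 413 kb, from 2.61 to 8.39, none within 1 kb of a listed start and none with a Tle4cKO partner. Maml3 had 5 along 418 kb, from 3.50 to 4.70, also in WT alone. Of the 556 protein-coding genes of at least 300 kb, 5 had at least 8 WT summits inside and 24 had at least 5, while the median was 0.

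**Figure D4:**
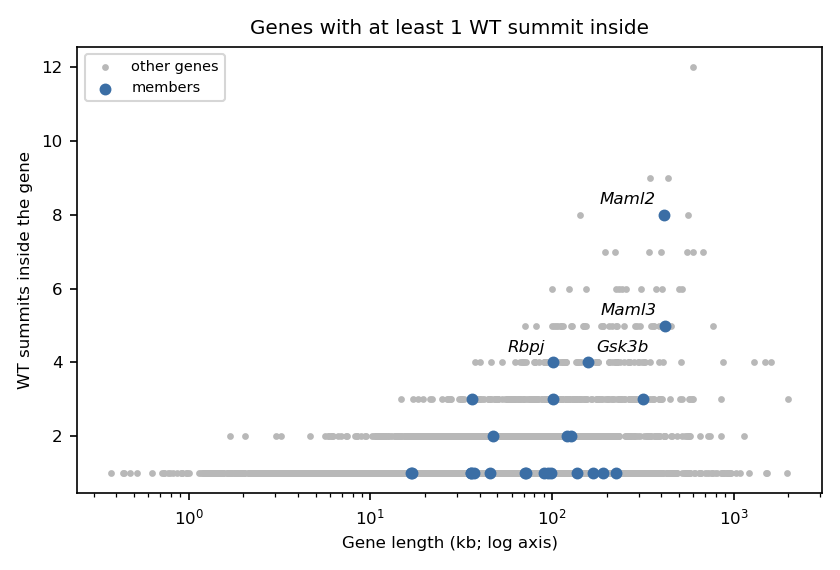
Number of WT summits inside a gene (vertical axis) against gene length in kb (horizontal log axis), for all protein-coding genes with at least 1; members are blue. Maml2 with 8 and Maml3 with 5 summits stand among the most marked long genes, and Rbpj and Gsk3b have 4 each.

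Rbpj, the DNA-binding factor of Notch signalling, had 4 WT summits inside the gene, with scores of 4.06, 2.82, 3.79 and 2.30, and 1 of 2.63 beyond it. The summit of 2.82 lay 40 bp upstream of a listed internal start, 34.7 kb from the nearest outer end, so that Rbpj was marked at a start although not at an outer end. Maml2, Maml3 and Rbpj together held 17 of the 51 WT summits inside members. Per 100 kb of gene, members held 1.20 WT summits, and 1.03 without these 3 genes. The value was 0.691 over all protein-coding genes, and 0.432 over those of at least 45.9 kb, against 1.15 for members of that length. In Tle4cKO the densities were 0.118 per 100 kb in members and 0.160 over all genes.

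Notch receptors had 1 WT summit each in the body, 5.52 at Notch1, 20.3 kb downstream of its start, and 4.86 at Notch2, 12.4 kb downstream. Notch4 had none. All 3 ligand genes of the list, Jag1, Dll1 and Dll4, were without a summit within 10 kb in either library. At Dll1 the nearest summits lay 19.6 kb outside the gene in both lists. Of the Deltex genes, ubiquitin ligases that act on Notch, Dtx4 had a WT summit of 6.62 at 275 bp from an outer end, and Dtx2 and Dtx3 had none. Numb, an inhibitor of Notch, had WT summits of 6.28, 285 bp downstream of its first start, and of 4.53, 1375 bp downstream of an internal start. Spen, a corepressor that binds Rbpj, had a WT body summit of 3.44, and at Sin3a, the scaffold of a histone deacetylase complex, the only WT summit was one of 5.66 at an end of Man2c1.

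Listed starts of transcription give the sharpest view of promoters. Starts were listed for 42 of the 53 members. Within 1 kb of one, 11 of 42 members (26.2%, 13.9 to 42.0%) had a WT summit and 1 had a Tle4cKO summit, against 25.0% and 6.92% of 17491 genes with a listed start. In WT these were Tle1, Runx1, Gsk3a, Gsk3b, Dvl1, Dvl3, Maml1, Ncstn, Numb, Psen2 and Rbpj, of which 8 were also found at an outer end and 3, Runx1, Psen2 and Rbpj, only at an internal start. Of the genes with a WT summit at a start, 1 of 11 members and 25.5% of all genes also had a Tle4cKO summit at one. The 11 member summits had scores from 2.38 to 15.9 with a median of 3.90, while the median over all 4046 WT summits at listed starts was 5.04. Over all WT summits, 98.1% of the top 1% by score and 17.2% of the rest had a Tle4cKO summit within 500 bp, and the part of score in the members' count was not tested.

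Starts of members were rich in G and C. The median over the 300-base windows (250 bases before and 50 after the start) was 63.2% for 62 member starts and 56.3% for 21262 starts of all genes. The median number of CpG dinucleotides was 21 and 13. Over all genes, starts with a WT summit within 1 kb had a median of 61.3% G and C and those without 54.3%. Member starts with a WT summit were at 65.2% (12 starts) and those without at 62.2% (50 starts). The 62 member starts belong to 42 genes, and windows of a gene with several starts can overlap, as at Lef1 and Rbpj. A motif match there can count more than once. The RBPJ motif was found at 18 member starts (29.0%, against 24.5% of all starts), TCF/LEF at 3 (4.84% against 9.21%), RUNX at 5 (8.06% against 15.0%), HES/HEY at 25 (40.3% against 46.7%), the GC box at 36 (58.1% against 46.2%) and ETS at 11 (17.7% against 18.7%).

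Taking summits in place of genes, 65 WT and 6 Tle4cKO summits lay in the members or within 10 kb. Of the 65, 4 (6.15%, 1.70 to 15.0%) had a Tle4cKO summit within 500 bp, against 18.0% of all WT summits. They were the summits at Wls, Maml1, Psen2 and Cbfb. Of the 6 Tle4cKO summits these 4 had a WT partner, against 79.7% of the whole list, and those at Dvl3 and Znrf3 did not. The member WT summits had a median score of 4.09, under the 4.47 of the list, and 35 of 65 scored below that median. By place, 10 lay at gene ends with a median score of 6.45, 44 in gene bodies with 3.82, and 11 outside the gene with 5.66. Of those 11, 9 lay at an end of another gene, and 5 members, Dvl2, Lrp5, Psenen, Aph1a and Sin3a, had no other summit. The 65 WT summits belong to 32 members, with up to 8 at a member. They are not independent, so the interval of 1.70 to 15.0% can be too narrow. Over the whole WT list, 41.6% of summits lay at an end of a protein-coding gene. Sharing by place was not computed for that list.

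Further genes of the same pathways were examined for context. These lists too were chosen with earlier results of these data known, so their shares carry no test. WT summits lay within 10 kb of 9 of 32 other Groucho partners and corepressors (28.1%, 13.7 to 46.7%, against 39.2% of all genes). That interval includes the background. Their median length was 14.4 kb, against 17.2 kb over all genes. Tle4cKO summits lay near 2 of the 32 (6.25%, 0.766 to 20.8%, against 11.6%), at Hdac2, a histone deacetylase, and near Hes2. Hdac2 had gene-end scores of 20.3 in WT and 8.51 in Tle4cKO. The corepressor genes Ctbp1 and Ncor1 had WT gene-end summits of 6.74 and 5.85 and none in Tle4cKO, and the Ncor1 summit is common to Pigl. The Hes2 summit, of 4.67 in Tle4cKO alone, was singled out after its value was seen. The 10 kb window held a WT summit at 21 of 30 other Notch genes (70.0%, against 39.2% of all genes). At 2 of the 21 it held a Tle4cKO one too (9.52%, 1.17 to 30.4%), against 27.6% over all genes with a WT summit, which the interval includes. At gene ends it was 12 of 30 in WT (40.0%, against 22.6% of all genes) and 0 of 30 in Tle4cKO (upper bound 11.6%, against 6.19%). The highest WT scores there were those of Adam17 (10.4) and Adam10 (7.08), proteases that can shed the outer part of Notch, and of Mib2 (8.52), a ligase that acts on its ligands.

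The 10 kb window held a WT summit at 21 of 79 other Wnt genes (26.6%, below the 39.2% of all genes), 6 of them with a Tle4cKO one too (7.59% of the 79, against 11.6%). Those 6 were 28.6% of the 21 (11.3 to 52.2%), close to the 27.6% over all genes with a WT summit. At gene ends it was 14 in WT (17.7%, against 22.6%) and 5 in Tle4cKO (6.33%, against 6.19%), and all 5 were marked in both. Frat2 (13.9 in WT and 7.49 in Tle4cKO) and Frat1 (9.74 and 6.44) encode proteins that bind glycogen synthase kinase 3. Cby1 (5.04 and 8.37), which binds beta-catenin, shared its summit with Fam227a, and Chd8 (6.87 and 8.16), a chromatin remodeller, with Supt16. Csnk2a1, a catalytic subunit of casein kinase 2, had a WT score of 9.18 and no Tle4cKO summit.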

How the data were processed

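H3K27ac CUT&Tag libraries of colonic macrophages from WT and Tle4cKO mice were compared as 1 list of peak summits each. Reads were handled with cutadapt 1.14, Bowtie2 2.2.5 and the mm10 build, per the submitters' processing notes. How peaks were called, with which settings and against which control, and how deeply the libraries were sequenced, is not given in the sources used here. Each summit's score is the authors' deposited value, taken as −log10 significance from the layout of the lists and their lowest scores of 1.35 and 1.37. Whether it comes from a p-value or a q-value was not stated.

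The 4 WT and 2 Tle4cKO mitochondrial summits were left out. Positions count from 1. Outer gene bounds came from RefSeq on GRCm38.p6, the assembly behind mm10, and starts of transcription and strands from a RefSeq promoter table of that build, which lists 42 of the 53 members. That table has no entry for Tle5, Hes1, Hey1, Axin1, Apc, Csnk1a1, Lrp5, Lrp6, Znrf3, Dtx3 and Dtx4. Exons were not used, so exons and introns were not told apart. A summit was placed at a gene end (within 1 kb of an outer bound), in the gene body, or outside the gene within 10 kb, and could count for several genes. Summits within 500 bp of each other were called shared. All members with a summit are named with scores, and of each further list the 3 highest gene-end scores per library. The list symbol Trac was not matched. The members and lists were chosen with earlier results of these data known, and the start window and the split by gene length after the values were seen. With 1 library per genotype no test was made. Placement and sharing were tested on simulated data. Python 3.11.15, numpy 2.4.6, pandas 2.3.3, scipy 1.17.1 and matplotlib 3.10.9 were used.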

Additional observations from a re-analysis of the deposited data

How the results depend on the processing

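No paired analysis was possible because each genotype has 1 library. Of 42 alternative values for the counts of members or summits, 30 stayed within 1.5 times the reported count. With scores of at least 5 in both lists, members with a summit within 10 kb went from 32 to 19 in WT and from 6 to 1 in Tle4cKO, those with both from 6 to 1, those with a gene-end summit from 10 to 6 in WT and from 2 to 1 in Tle4cKO, and shared WT summits from 4 to 1; the 1 gene left in Tle4cKO is Wls. With only as many top WT summits kept as Tle4cKO has, members within 10 kb fell to 8 in WT and those with both to 2. Those at a WT gene end fell to 5, because fewer WT summits were left. Shared WT summits of members went from 4 of 65 to 2 of 9, so their count fell while their share rose. With scores of at least 5 it was 1 of 23. The 2 Tle4cKO gene-end members became 0 with a window of 500 bp and 1 without the top 1% of scores, an alternative chosen after seeing the data. Tle4cKO counts of 1 to 6 genes rest on few summits, and unknown depth limits any reading of a missing summit. Shares over all genes were not computed for these alternatives.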
